A study of Mus musculus with 6 samples.

Results

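The chemokine system of MC/9 mast cells was described from 57 genes, which were all rows of a count table of 49568 genes whose symbol named a numbered chemokine ligand (39 genes) or a numbered chemokine receptor (18 genes) of the CC, CXC, XC or CX3C class. RNA was sequenced from 3 control libraries and 3 libraries of cells given rPTH at 10 nM for 24 h. MC/9 is a mouse mast cell line, and per the series' design text the mast cells had been placed on 7F2 cells, a mouse osteoblast line, and were collected from that co-culture. The labels do not spell out rPTH, read here as a parathyroid hormone preparation. They mark the controls as receiving no agent and do not say whether those cells also sat on osteoblasts. Each line is a single established line, and nothing says that libraries came from separate cultures, so p-values measure only the spread between these libraries, which may be technical.

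Chemokines are small secreted proteins that draw leukocytes toward their source. They are classed by the spacing of the first cysteines of the mature protein, they act through G protein-coupled receptors, and they are held on cell surfaces by glycosaminoglycans. Mast cells are known sources of CC chemokines such as Ccl1, Ccl2 and Ccl3. Osteoblasts and other stromal cells make Cxcl12, which retains blood-forming cells in the marrow, and parathyroid hormone is known to raise Ccl2 in osteoblasts.

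Library totals were 22282095 to 33577977 counts, and each rPTH library was deeper than each control. Levels are counts per 1000000 of the library total scaled by TMM factors (CPM), and a count of 0 allows up to 3 counts, which was 0.084 to 0.152 CPM; that floor covers counting error only. On the first principal component control 1 lay at -98.4 and the remaining 5 libraries at 9.67 to 28.5, and its TMM factor was 0.81 against 1.03 to 1.06, so scaling raised its CPM relative to the others. Some results that turn on this are given in plain CPM as well, in which counts are divided by the library total alone. All other levels are in TMM-scaled CPM only, so the place of control 1 in them depends on its factor. On the second principal component control 3 lay apart, at -75 against 3.67 to 22.8 for the other libraries. Control 3 also had the most genes with a count above 0 (31346 against 25880 to 29229), at the lowest library total. Several defining mast cell transcripts were abundant: the protease Cpa3 had 44512 to 72323 counts per library and the IgE receptor chain Fcer1a 32783 to 56529. Other proteases of the mast cell list were far lower, with 310 to 620 counts for Cma1, 243 to 434 for Tpsab1 and 0 to 4 for Mcpt4. Summed over 30 osteoblast and stromal markers, CPM was 2910, 2540 and 2490 for the controls and 5000, 3220 and 3260 for the rPTH libraries, each in replicate order. In plain CPM those sums were 2350, 2630 and 2590 against 5150, 3370 and 3470, so control 1 was the highest control on one scale and the lowest on the other. For 15 mast cell markers the sums were 9860, 8220 and 8260 CPM against 6660, 8580 and 8170 CPM (plain CPM 7990, 8510 and 8590 against 6870, 8990 and 8690). Of 14 tested mast cell markers 9 lay below 0 (median log2 fold change -0.21), as did 9766 of all 16696 tested genes (median -0.09). Sums in CPM were 35.1 to 57.2 for 14 macrophage markers (control 1 highest), 2.32 to 8.2 for 8 neutrophil markers and 2.63 to 3.71 for 12 lymphocyte and dendritic markers. Macrophage markers differed widely among themselves. The complement genes C1qa, C1qb and C1qc had 0 to 3 counts per library, whereas Fcgr1 had 481 to 700, Cd14 170 to 391 and Cd68 63 to 115. In RNA from all collected cells together, fewer cells of a type and less RNA per cell cannot be told apart.

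Of the 57 genes, 20 passed the low-count filter and were tested: 12 CC ligands, 5 CXC ligands, the CX3C ligand Cx3cl1, and the receptors Ccr10 and Cxcr4. None passed at an adjusted p under 0.05 (edgeR quasi-likelihood test; smallest adjusted p = 0.619), as was so for the whole table, where 0.0% of 16696 genes passed. At an unadjusted p under 0.05 there was 1 gene, Cxcl9, higher with rPTH, against 1.98% of all tested genes higher and 5.89% lower. DESeq2 also called 0 of the 20, with 3 higher at an unadjusted p under 0.05 (Cxcl9, Cx3cl1 and Cxcl12), against 3.76% of all tested genes. With limma-voom 0 were called and 1 (Cxcl9) was higher at an unadjusted p under 0.05, against 1.96%. The median log2 fold change (rPTH minus control) was 0.16 over the 20 genes and -0.09 over all tested genes, and 13 of the 20 lay above 0, against 41.5% of all tested genes. The median over the 20 was 0.45 without control 1, 0.03 without control 2 and 0.01 without rPTH 1. Scaling by library totals alone moved the median of all tested genes to 0.04 and that of the 20 to 0.33.

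**Figure D1:**
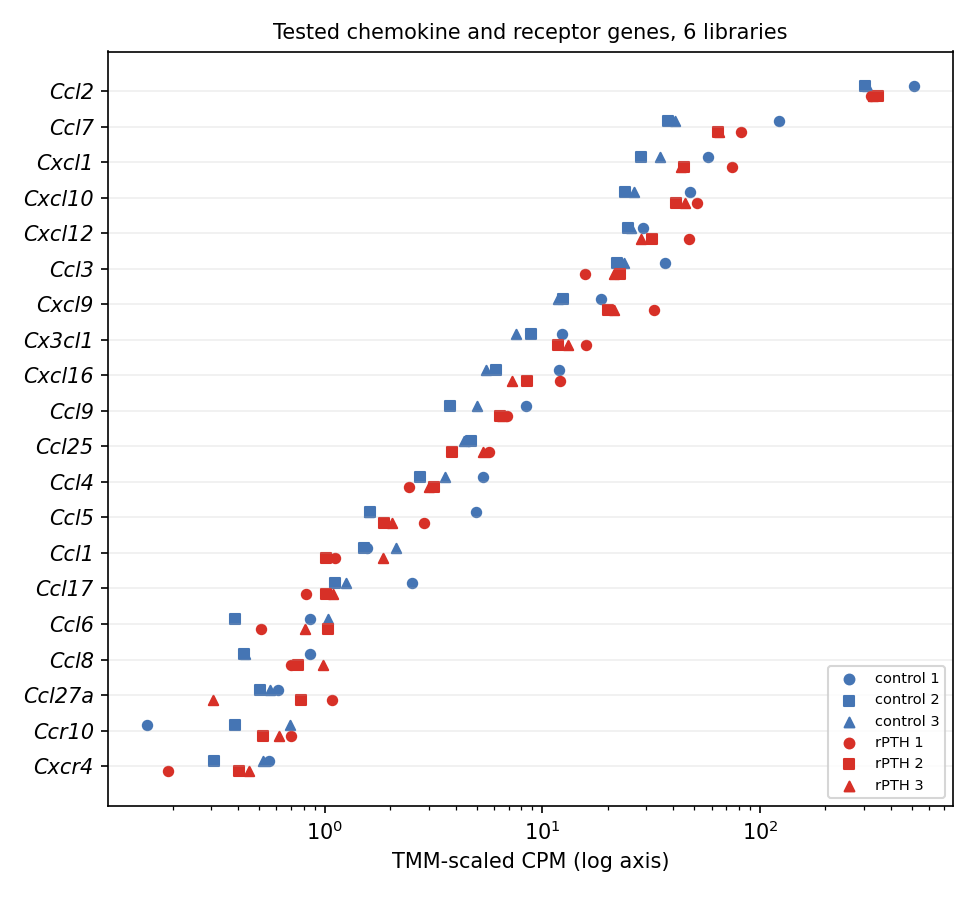
TMM-scaled CPM (log axis) of the 20 tested genes in each of 6 libraries, blue for control and red for rPTH, with 1 marker shape per replicate number. Ccl2 is the highest gene in every library, at 306 to 512 CPM, and Cxcl9 is the 1 ligand whose red points all lie to the right of the blue ones.

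Ccl2, the main attractant of monocytes through Ccr2, was the ligand with the highest level per exon length, at 331 ± 103 CPM per kb in controls and 294 ± 12.5 CPM per kb with rPTH (SD, n = 3 each). Next came Ccl7, which also draws monocytes, with 83.6 ± 59.9 and 88 ± 12.4 CPM per kb. The level of Ccl3, a ligand of Ccr1, was 35.9 ± 10.4 and 26 ± 4.82 CPM per kb. The neutrophil attractant Cxcl1 followed at 21.5 ± 8.15 and 29 ± 9.44 CPM per kb, and Cxcl10, a ligand of Cxcr3, at 14.5 ± 5.87 and 20.4 ± 2.3 CPM per kb. Every other tested gene had a control mean under 6 CPM per kb.

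By library, Ccl2 had 512, 306 and 312 CPM among controls and 323, 350 and 330 CPM among rPTH libraries, in replicate order as in all such lists. Control 1 was the highest library and the other 2 controls lay below all rPTH libraries, so the groups overlapped. The log2 fold change of Ccl2 was -0.17 ± 0.25 (SE; 95% interval -0.75 to 0.41; edgeR adjusted p = 0.778), and its sign turned without control 1 (0.10). Ccl7, which lies next to Ccl2 on chromosome 11, had 122, 38 and 40.6 CPM in the controls and 82, 64.3 and 65.2 CPM with rPTH. Here too control 1 was highest and control 2 and 3 were lowest, and the log2 fold change of 0.07 ± 0.46 (SE) was 0.83 without control 1 and -0.22 without control 2.

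The inflammatory ligands Ccl3, Ccl4 and Ccl5 lay below 0 in this comparison. Ccl3 had 36.6, 22 and 23.8 CPM in controls and 15.8, 22.7 and 21.4 CPM with rPTH, a log2 fold change of -0.46 ± 0.26 (SE; 95% interval -1.07 to 0.15). Ccl4, its neighbour on chromosome 11, had 5.36, 2.75 and 3.59 CPM and 2.44, 3.19 and 3 CPM, a log2 fold change of -0.44 ± 0.32 (SE). For both genes rPTH 1 was the lowest library and control 1 the highest, as for the mast cell marker sums in TMM-scaled CPM. In plain CPM control 1 stayed highest for both genes (29.6 and 4.35 CPM). Its mast cell marker sum was then 7990 CPM, below 8510 and 8590 CPM in control 2 and 3. The part of mast cell RNA in this order was not tested. Ccl5 had 4.96, 1.62 and 1.6 CPM in controls and 2.85, 1.88 and 2.04 CPM with rPTH. Only control 1 was high among the Ccl5 controls, and its log2 fold change of -0.26 became 0.47 without that library. With each library's length and GC trend removed the log2 fold changes of Ccl3, Ccl4 and Ccl5 were -0.02, 0.14 and 0.29; these are short transcripts, with 0.766, 0.66 and 0.96 kb of exon.

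Ccl17, a ligand of Ccr4, had 2.53, 1.12 and 1.25 CPM in controls and 0.824, 1.01 and 1.09 CPM with rPTH, from 26 to 50 counts per library. It was the 1 tested gene with all rPTH libraries below all controls in TMM-scaled CPM, against 8.45% of all tested genes. The log2 fold change was -0.73 ± 0.41 (SE; edgeR adjusted p = 0.628), -0.29 without control 1 and -0.06 after removal of length and GC trends, and in plain CPM the groups met (1.16 CPM in control 2 and in rPTH 3). Ccl1, a ligand of Ccr8 known from activated mast cells and T cells, had 1.57, 1.51 and 2.12 CPM in controls and 1.11, 1.01 and 1.85 CPM with rPTH. Its groups overlapped, with 1 high library in each, and its log2 fold change was -0.38 ± 0.36 (SE).

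Ccl9, a further Ccr1 ligand, had 8.45, 3.75 and 5.01 CPM in controls and 6.88, 6.37 and 6.5 CPM with rPTH, with the rPTH libraries inside the control range. Ccl25, the ligand of Ccr9, had 4.6, 4.72 and 4.36 CPM and 5.71, 3.85 and 5.35 CPM, and rPTH 2 was lower than every control. The log2 fold changes were 0.20 ± 0.32 and 0.12 ± 0.25 (SE). Ccl25 overlaps the RNA-binding protein gene Elavl1 on the other strand, which had 2128 to 3564 counts per library against 91 to 191 for Ccl25. No source used here states whether counting used strand, and the reads of this pair cannot be told apart. The low ligands Ccl6, Ccl8 and Ccl27a had 0.308 to 1.08 CPM over all libraries and log2 fold changes of 0.06, 0.51 and 0.37, with 95% intervals that all crossed 0. Ccl27a (11 to 34 counts) overlaps Il11ra1 (52 to 135 counts) on the other strand, so its reads carry the same doubt, and Ccl6 and Cxcl16 overlap E230016K23Rik (5 to 16 counts) and Zmynd15 (9 to 27 counts) there. Of the 12 tested CC ligands 9 lie on chromosome 11 and 6 lay above 0 (median log2 fold change -0.06).

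Among CXC and CX3C ligands the log2 fold change was above 0 for 6 of 6 tested genes (median 0.47). None passed the test, and the difference from the CC ligands was not tested. Cxcl9, an interferon-gamma-induced ligand of Cxcr3 that draws T cells, had 18.7, 12.5 and 11.8 CPM in controls and 32.6, 20.1 and 21.3 CPM with rPTH. The groups did not overlap, as was so for 8.35% of all tested genes in this direction. The means were 14.3 ± 3.81 and 24.7 ± 6.92 CPM (SD, n = 3 each). On the log2 scale they differed by 0.78 ± 0.28 (SE; 95% interval 0.13 to 1.44; unadjusted p = 0.0255, edgeR adjusted p = 0.619, range over alternatives 0.19 to 0.922). Its fold change ran from 0.53 without rPTH 1 to 1.01 without control 1.

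Cxcl10, the other abundant Cxcr3 ligand, had 47.9, 23.9 and 26.4 CPM in controls and 51.3, 41 and 45.2 CPM with rPTH. Control 1 lay among the rPTH libraries and the other 2 controls lay well below them, and the log2 fold change was 0.49 ± 0.29 (SE; 95% interval -0.20 to 1.17). Cxcl1, which acts on Cxcr2, had 57.5, 28.4 and 34.9 CPM and 74.8, 44.8 and 43.5 CPM, with control 1 again above 2 of the rPTH libraries. Its log2 fold change of 0.43 ± 0.33 (SE) was 0.13 without rPTH 1 and 0.77 without control 1. Cxcl9 and Cxcl10 are neighbours on chromosome 5 (92321347 to 92328079 and 92346638 to 92348889, both on the minus strand, GENCODE M21 on GRCm38), whereas Cxcl1 spans 90891241 to 90893115 on the plus strand.

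Promoters of these 3 ligands are shown as examples, of which 2 carry matches to the NF-kB consensus. All 3 were highest in rPTH 1, but so was every tested CXC and CX3C ligand, and 9 of the 20 tested genes in all. The windows of Cx3cl1 and Cxcl12 held no NF-kB match. A link between these matches and the levels was not tested. NF-kB is a transcription factor known to drive many chemokine genes. Each line gives the 250 bases before the RefSeq start on the gene's strand (GRCm38.p6), at chr5:90890995-90891244 (plus strand) for Cxcl1, chr5:92348890-92349139 (minus strand) for Cxcl10 and chr5:92328080-92328329 (minus strand) for Cxcl9; capitals mark NF-kB consensus matches on either strand.
Cxcl1: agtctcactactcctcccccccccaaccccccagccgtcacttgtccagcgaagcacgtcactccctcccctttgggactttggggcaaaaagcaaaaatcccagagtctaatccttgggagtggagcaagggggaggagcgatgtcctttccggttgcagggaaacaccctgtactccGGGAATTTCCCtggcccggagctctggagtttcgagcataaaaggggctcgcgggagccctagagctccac
Cxcl10: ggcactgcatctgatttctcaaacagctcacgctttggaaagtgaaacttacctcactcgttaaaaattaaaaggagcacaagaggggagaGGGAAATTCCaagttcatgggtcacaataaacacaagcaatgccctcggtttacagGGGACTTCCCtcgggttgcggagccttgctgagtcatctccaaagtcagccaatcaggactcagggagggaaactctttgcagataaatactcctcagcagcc
Cxcl9: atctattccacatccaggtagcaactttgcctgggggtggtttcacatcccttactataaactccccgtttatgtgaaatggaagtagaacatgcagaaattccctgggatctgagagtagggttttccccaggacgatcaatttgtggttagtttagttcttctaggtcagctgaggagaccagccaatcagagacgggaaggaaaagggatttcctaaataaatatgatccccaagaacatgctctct

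The capitals in Cxcl1 are 2 matches that overlap, and those in Cxcl10 are 2 separate matches that begin 159 and 103 bases before the start. No stretch of the Cxcl9 window matched these letters. Cxcl10 also held the core of the interferon-stimulated response element, searched on both strands, 213 bases before its start. Of 32851 promoter windows of this length in the table, 3.9% held the NF-kB consensus and 2.98% the interferon element. Of the 20 tested genes 14 were in the table, of which 3 (Ccl9, Cxcl1 and Cxcl10) held the NF-kB consensus and 1 (Cxcl10) the interferon element. The gamma-activated sequence, TTCNNNGAA on both strands, matched 7.02% of all windows and 1 of the 14, Ccl17.

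Cx3cl1, the membrane-anchored ligand of Cx3cr1 also called fractalkine, had 12.3, 8.89 and 7.6 CPM in controls and 15.9, 11.8 and 13.2 CPM with rPTH. Only rPTH 2 fell below a control, control 1, and the log2 fold change was 0.51 ± 0.24 (SE; 95% interval -0.07 to 1.08; edgeR adjusted p = 0.625). It lies on chromosome 8 from 94772009 to 94782427, close to Ccl17 (94810453 to 94812036), whose fold change had the opposite sign. Cxcl12 had 29, 24.7 and 25.6 CPM in controls and 47.5, 32.1 and 28.5 CPM with rPTH, so that rPTH 1 stood well above the other 2 rPTH libraries and rPTH 3 lay below control 1. The log2 fold change of Cxcl12 was 0.45 ± 0.23 (SE; 95% interval -0.09 to 0.98), and it was 0.20 without rPTH 1. Cxcl16, a membrane-bound ligand of Cxcr6, had 11.9, 6.11 and 5.49 CPM and 12.1, 8.49 and 7.28 CPM, and its log2 fold change was 0.25 ± 0.37 (SE) with all libraries and 0.01 without rPTH 1.

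Scaling changed how far these 6 ligands separated. In plain CPM the groups did not overlap for 4 of the 6 (Cxcl9, Cx3cl1, Cxcl10 and Cxcl12), all higher with rPTH, while 13.5% of all tested genes did so in that direction. Ccl8 was the fifth of the 20 to do so, and 0 of the 20 did so in the lower direction, against 5.65% of all tested genes. Cx3cl1 then had 9.96, 9.2 and 7.9 CPM in controls against 16.4, 12.3 and 14.1 CPM, and Cxcl12 had 23.5, 25.6 and 26.6 CPM against 49, 33.7 and 30.3 CPM. Without TMM factors edgeR gave these 4 genes an unadjusted p under 0.05, against 3.11% of all tested genes in that direction, and no adjusted p under 0.05. In the authors' deposited table the same 4 genes had an unadjusted p under 0.05: Cxcl9 (0.0031), Cx3cl1 (0.0244), Cxcl12 (0.0409) and Cxcl10 (0.049). All 4 were higher with rPTH. Of the 38144 genes with a p-value in the authors' deposited table, 1.71% were higher with an unadjusted p under 0.05. That is a larger set of genes than the 16696 tested with edgeR. The adjusted p of Cxcl9, Cx3cl1, Cxcl12 and Cxcl10 in the authors' deposited table was 0.154, 0.324, 0.411 and 0.442.

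**Figure D2:**
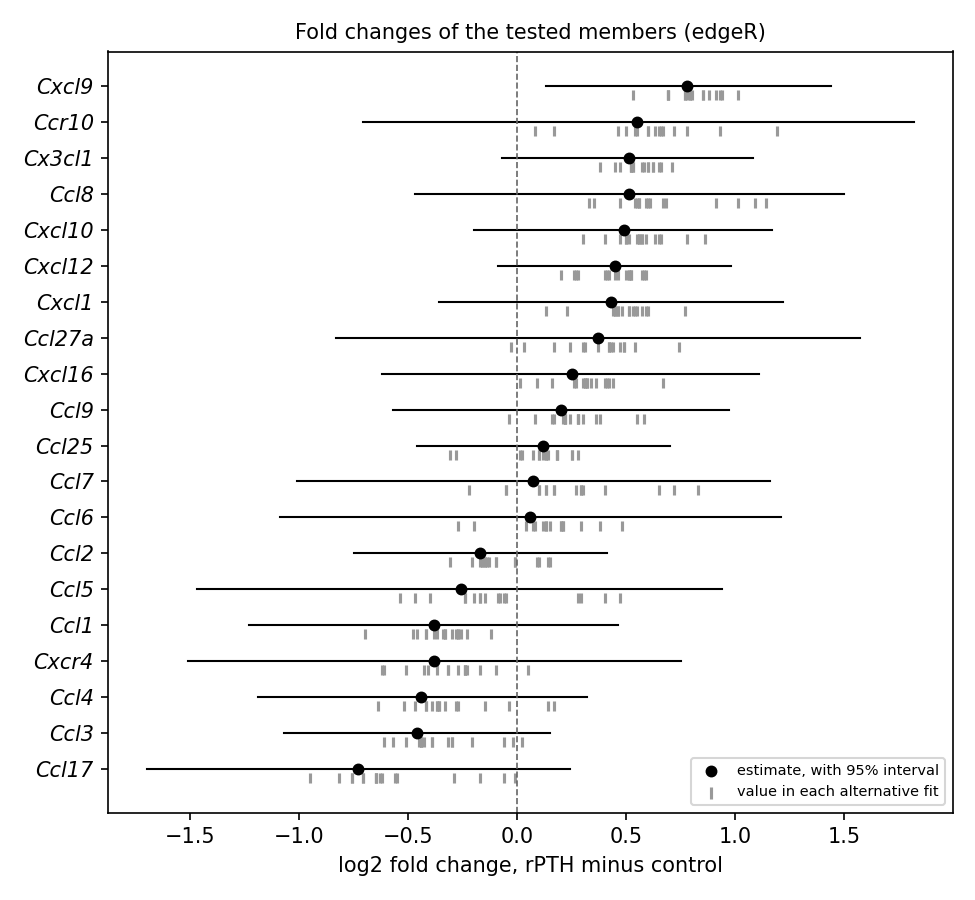
Log2 fold change (rPTH minus control) of each tested gene, as points with 95% intervals, and grey ticks for its value in each alternative fit. The interval of Cxcl9 (0.13 to 1.44) is the 1 that does not cross 0. The ticks of Cxcl9, Cx3cl1, Cxcl10, Cxcl12, Cxcl1 and Cxcl16 all lie above 0, as do those of Ccl8 and Ccr10. The lowest tick of Cxcl16 is at 0.01.

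Osteoblast and stromal markers were mostly higher in the rPTH libraries too. Of 26 tested markers 24 lay above 0 (median log2 fold change 0.55), against 41.5% of all tested genes. Of these markers 11 were higher at an unadjusted p under 0.05, against 1.98% of all tested genes, and 0 passed at an adjusted p under 0.05 (edgeR). The marker genes Lum, Dcn, Bglap and Ibsp had 0 to 5 counts per library. Library rPTH 1 had the highest marker sum and also the highest CPM of all 6 CXC and CX3C ligands. Among controls the order differed: in plain CPM control 1 had the lowest marker sum but the highest Cxcl9, Cx3cl1, Cxcl10, Cxcl1 and Cxcl16. Per 100 counts of the marker list, Cxcl12 had 0.998, 0.973 and 1.03 counts in the controls and 0.952, 0.999 and 0.873 with rPTH, so on this scale the groups overlapped. Cxcl9 had 0.644, 0.49 and 0.475 counts per 100 in controls and 0.654, 0.626 and 0.653 with rPTH, with control 1 above rPTH 2. Cx3cl1 had 0.423, 0.35 and 0.305 against 0.319, 0.366 and 0.406. On this scale 0 of the 20 tested genes had all rPTH libraries above all controls, against 0.27% of all tested genes. The other direction held for 5 CC ligands (Ccl2, Ccl3, Ccl4, Ccl5 and Ccl17), against 47.9% of all tested genes, since the denominator itself was higher with rPTH. Per mast cell marker count, Cxcl9, Cx3cl1, Cxcl12 and Ccl8 (4 of the 20) had all rPTH libraries above all controls, against 9.96% of all tested genes, and Ccl3 and Ccl17 (2 of the 20) had all below, against 3.5%. The part of osteoblast RNA in these ligands was not tested.

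**Figure D3:**
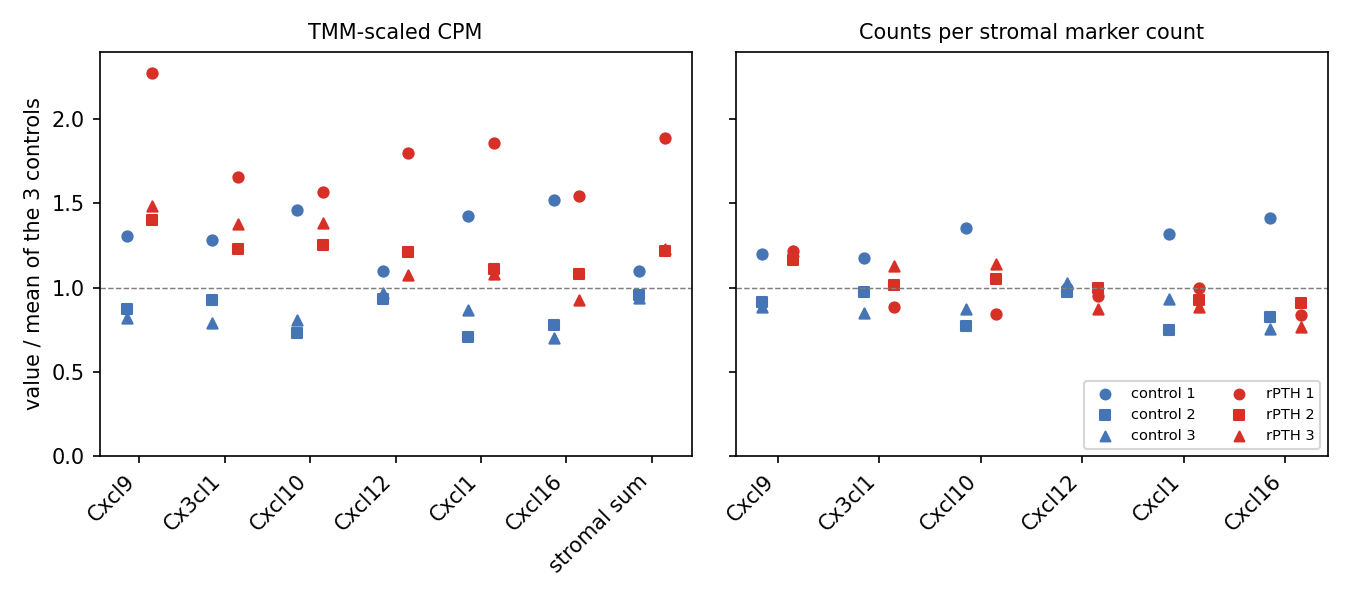
Each of the 6 libraries relative to the mean of the 3 controls, for 6 CXC and CX3C ligands and the summed stromal markers in TMM-scaled CPM (left) and for the ligands per stromal marker count (right). On the left rPTH 1 is highest for each ligand and for the marker sum, and on the right the groups overlap for all 6 ligands.

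Conventional receptors were close to the limit of detection. All 18 receptors together had 38, 53 and 77 counts in controls and 84, 74 and 83 with rPTH, against 11780 to 21391 counts per library for the 39 ligands. Scaled for the greater depth of the rPTH libraries, the receptor sums overlapped. They were 1.92, 2.05 and 3.33 CPM in controls and 2.66, 2.14 and 2.32 CPM with rPTH. Ccr10, which binds Ccl27 and Ccl28, had 3, 10 and 16 counts in controls and 22, 18 and 22 with rPTH, or 0.41 ± 0.27 and 0.612 ± 0.0881 CPM (SD, n = 3 each). It overlaps Cntnap1 on the other strand, a gene with 56 to 237 counts and a log2 fold change of 0.75, and the log2 fold change of Ccr10 was 0.55 ± 0.53 (SE). Cxcr4, the receptor of Cxcl12, had 11, 8 and 12 counts in controls and 6, 14 and 16 with rPTH, a log2 fold change of -0.38 ± 0.48 (SE). Both intervals crossed 0 widely (-0.71 to 1.82 and -1.51 to 0.75), so neither a rise nor a fall was established for either receptor.

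The other 16 receptors had 0 to 13 counts per library and were not tested. Receptors of the abundant ligands were among them: Ccr2, the receptor of Ccl2 and Ccl7, had 0 to 6 counts, Ccr1 3 to 13, Cxcr2 0 to 5, Cxcr3 0 to 2 and Cx3cr1 0 to 6. Among the 21 untested ligands, 8 had no count in any library (Ccl19, Ccl21a, Ccl21b, Ccl21c, Ccl26, Cxcl13, Cxcl17 and Xcl1) and 13 had 0 to 12 counts per library. Cxcl2, a neutrophil attractant closely related to Cxcl1, had 0 to 3 counts per library while Cxcl1 had 734 to 2359. Ccl12, in the same cluster as Ccl2 and Ccl7, had 0 to 1 count. Genes with near-identical copies (Ccl21a, Ccl21b, Ccl21c, Ccl27a and Ccl27b) may lose or share reads, so their counts are uncertain.

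Atypical receptors bind chemokines without G protein signalling and act as scavengers or carriers. Ackr1, the Duffy antigen, which binds many inflammatory CC and CXC chemokines, had 256, 150 and 146 CPM in controls and 110, 160 and 137 CPM with rPTH, from 3380 to 5535 counts per library. Control 1 was highest and rPTH 1 lowest, as for the mast cell marker sums in TMM-scaled CPM. In plain CPM control 1 stayed highest for Ackr1 (208 CPM) but not for those sums (7990 CPM against 8510 and 8590 CPM in control 2 and 3). The part of mast cell RNA in Ackr1 was not tested. The log2 fold change of Ackr1 was -0.44 ± 0.27 (SE; 95% interval -1.09 to 0.21; edgeR adjusted p = 0.628). Per exon length its level was 131 ± 44.4 CPM per kb in controls, against 0.255 CPM per kb for Cxcr4 and 0.237 CPM per kb for Ccr10. Ccrl2, which presents the attractant chemerin, had 3.73 ± 0.347 and 3.04 ± 0.438 CPM (SD, n = 3 each), and Ackr3, a scavenger of Cxcl12, had 2 to 16 counts. Ackr2 and Ackr4 had 0 to 11 counts and were not tested, nor were the platelet chemokines Pf4 and Ppbp, whose symbols lie outside the naming rule, at 0 to 10 counts.

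**Figure D4:**
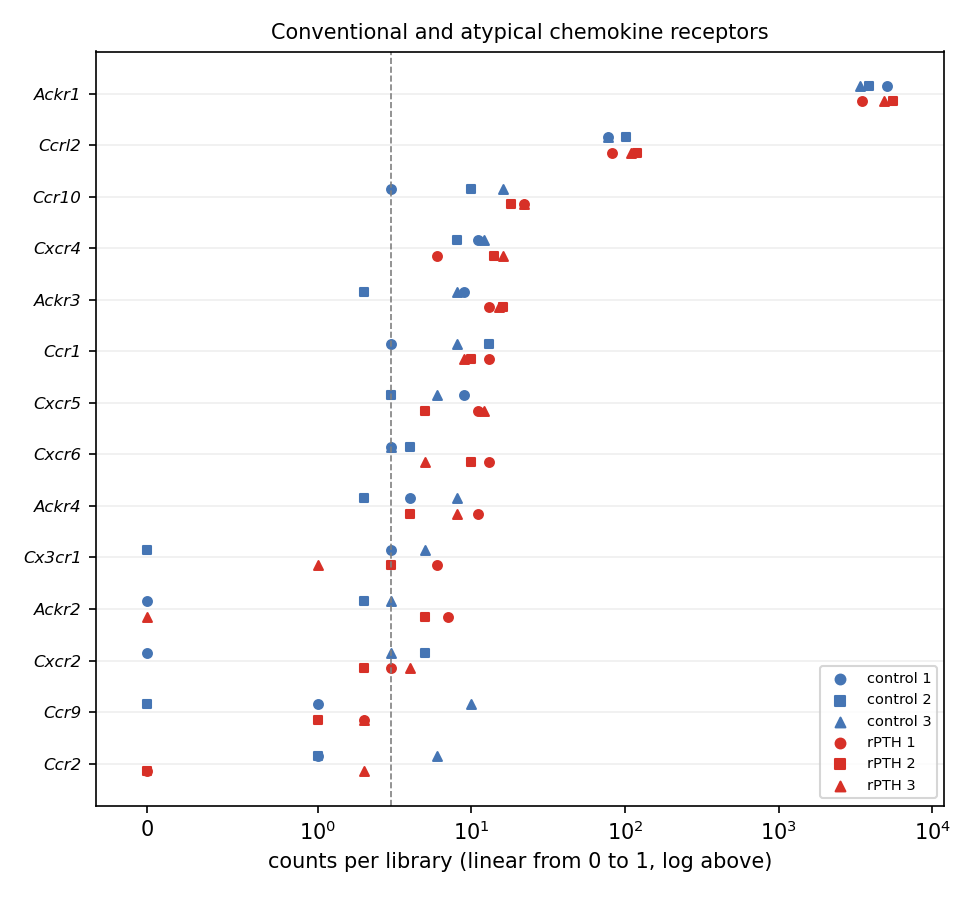
Counts per library of the conventional and atypical chemokine receptors with more than 3 counts in at least 1 library (axis linear from 0 to 1 and logarithmic above), blue for control and red for rPTH; the dashed line marks 3 counts. Ackr1 has at least 3380 counts in every library, and no conventional receptor exceeds 22 counts.

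Most genes of the machinery downstream of chemokine receptors were present at much higher counts than those receptors. Exceptions were Plcb2 (1 to 7 counts per library), Pik3r5 (8 to 25) and Grk3 (0 to 5). None of the tested genes passed. Of 13 tested G protein signalling genes 6 lay above 0 (median log2 fold change -0.07), with the inhibitory subunit Gnai2, through which these receptors signal, at 572 ± 100 CPM without and 474 ± 29.9 CPM with rPTH (SD, n = 3 each). Of 9 tested genes for receptor desensitisation 4 lay above 0 (median -0.02), and the receptor kinase Grk2 had 216 ± 31.6 and 183 ± 6.46 CPM. Of 12 migration genes 4 lay above 0 (median -0.03), with the small GTPase Rac1 at 968 ± 130 and 895 ± 84.1 CPM. Genes that shed, cleave or hold chemokines, such as sheddases and syndecans, had 9 of 10 tested genes above 0 (median 0.38), and 0 passed. Among these, the sheddase Adam10, which releases Cx3cl1 and Cxcl16 from the membrane, had 113 ± 45.9 and 146 ± 6.08 CPM. Ndst1, an enzyme of heparan sulfate synthesis, had 53.2 ± 29.7 and 74 ± 3.66 CPM, and syndecan Sdc3 had 50.6 ± 4.79 and 75.2 ± 19.4 CPM.

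No gene of the NF-kB or interferon programs, both known to induce chemokines, passed the test. NF-kB subunits and feedback targets had 6 of 12 above 0 with a median log2 fold change of 0.00, and Nfkb1 had 105 ± 9.67 and 116 ± 5.57 CPM (SD, n = 3 each). Interferon response genes had 8 of 12 above 0 with a median of 0.33. Of the 12, 2 were higher at an unadjusted p under 0.05 (edgeR), against 1.98% of all tested genes. Irf1, a transcription factor induced by interferon, was among those below 0 (log2 fold change -0.12), with 106 ± 24.4 and 98.1 ± 10.2 CPM. The smallest edgeR adjusted p was 0.628 among NF-kB genes and 0.619 among interferon genes.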

How the data were processed

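The counts deposited by the authors are whole numbers of reads per gene symbol in 6 libraries, with no normalization. Tools listed in the submitters' processing notes, without their roles, include STAR 2.5.2b, featureCounts from Subread 1.5.0p3, Trimmomatic 0.36 and DESeq2; the listed builds are mm9 and GRCm38.p5. Neither annotation nor strand setting is stated there. A deposited table of normalized signal holds the counts over 1 size factor per library, and the authors' comparison table came with log2 fold changes, a score (headed stat) and p-values. The first served only to check units, and values from the comparison table are named as the authors'.

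Genes were tested with edgeR 4.0.16 in R 4.3.3 (quasi-likelihood, robust, TMM, filterByExpr with a minimum count of 10, Benjamini-Hochberg over 16696 genes, threshold 0.05). The procedure was run on simulated counts with the same dispersion for all genes and no outlying library. That run does not show how the test performs on these libraries. Alternatives were other scaling, filters, DESeq2 1.42.0, limma-voom 3.58.1, a replicate block, protein-coding genes alone, removal of length and GC trends, and leaving out libraries. Exon lengths, positions and GC came from GENCODE M21, which matched 54 of the 57 genes, and promoters from RefSeq. The genes, lists and tests were chosen with earlier results of these data known. By the rule, every tested chemokine or receptor gene is named, with values per library at a mean of at least 1 CPM, and of other lists up to 3 genes of highest mean. Overlapping partner genes, defining markers and sums over lists fall outside that rule and were chosen with their values known. No 2 libraries were duplicates (chi-square per degree of freedom 13.3 to 291). Values of some genes are not reported here.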

Additional observations from a re-analysis of the deposited data

How the results depend on the processing

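No chemokine or receptor gene passed the threshold in any of 17 alternatives, and the fold change of 10 of the 20 tested genes kept its sign in all that gave a value: Ccl1, Ccl8, Ccl17, Ccr10, Cx3cl1, Cxcl1, Cxcl9, Cxcl10, Cxcl12 and Cxcl16. Of 335 values 21 had the opposite sign. With length and GC trends removed these were Ccl2 (0.09), Ccl25 (-0.31), Ccl4 (0.14) and Ccl5 (0.29), and with the replicate block added Ccl2 (0.15), Ccl25 (-0.28), Ccl3 (0.02), Ccl4 (0.17) and Ccl5 (0.40). Without both libraries numbered 1, chosen after seeing the data, they were Ccl2 (0.14), Ccl5 (0.28) and Cxcr4 (0.05). Without single libraries the log2 fold changes ran from -0.31 to 0.10 for Ccl2, -0.54 to 0.47 for Ccl5, -0.22 to 0.83 for Ccl7, -0.27 to 0.48 for Ccl6, -0.04 to 0.58 for Ccl9 and -0.03 to 0.74 for Ccl27a. The cause was not tested. Higher at an unadjusted p under 0.05 were 7 of 22 tested genes without control 1 (Ccl7, Ccl9, Cx3cl1, Cxcl1, Cxcl10, Cxcl16 and Cxcl9), against 4.46% of all genes, and 6 of 21 without both libraries numbered 1, against 3.17%. There were 0 without control 2 (1.13% of all genes) or without rPTH 1 (0.261%). Over the whole table DESeq2 called 5 genes on the filtered counts, against 0 with edgeR, and none of the 5 was a chemokine or receptor gene. Deviations from the group means had correlations of -0.131, -0.323 and 0.142 for same-numbered libraries and -0.271 to 0.354 for differently numbered ones. With 3 libraries per group these values cannot show whether libraries were paired. The labels do not say so, and the numbers were not taken to pair them. With the replicate block 0 chemokine or receptor genes and 0 of all genes passed, the median was 0.26, and genes at an unadjusted p under 0.05 over the table numbered 525 against 1314. The low-count filter removed 16 of 18 receptors; without it 49 of the 57 genes were tested and 0 passed.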
